A study of Arabidopsis thaliana with 12 samples.

Results

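Of plastid fatty acid synthesis, 2 genes are described here, AT1G24360 and FATB, each read by its 1 probe annotated to that gene alone. They were 2 of 689 loci with a single-gene probe among the 3439 probes of the array, and both passed the filter on dim probes. The array was hybridised with total RNA of Arabidopsis thaliana, wild type of the Columbia 0 ecotype, in 12 samples. Of these, 6 came from plants at normal CO2, labelled 0 d, and 6 from plants held for the final 6 d at 1% (v/v) CO2. The comparison asks which transcripts differ between plants at high and at normal CO2. The labels name neither the organ nor the age of the plants, so an effect of CO2 and one of 6 d of further growth cannot be told apart. They do not say either whether the 6 samples of a group are separate plants, and the spread behind each p-value may therefore be technical.

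Fatty acids of plants are built in plastids by a set of separate enzymes that extend an acyl chain while it is bound to acyl carrier protein (ACP). Each round joins a malonyl unit, reduces the resulting keto group, removes water and reduces the remaining double bond. AT1G24360 encodes the 3-ketoacyl-ACP reductase, which performs the first of the reductions with NADPH and so acts in every round of elongation. FATB encodes an acyl-ACP thioesterase, which ends elongation by cutting the finished chain from ACP and acts mainly on saturated chains, palmitate above all. The freed fatty acid leaves the plastid for membrane lipids, waxes and storage oil made elsewhere in the cell.

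Of the 2 genes, 0 passed the test over the 12 samples after quantile normalization, against a background of 5.52% of 3349 tested probes called higher and 6.96% called lower at high CO2. The test was limma with Benjamini-Hochberg adjustment over all tested probes and a threshold of 0.05. The deposited intensity of FATB was higher in all 6 high-CO2 samples than in any normal-CO2 sample, and FATB passed the test on that scale, where the median of all probes was higher too. Of the tested probes, 9.66% were called higher and 5.61% lay apart in the same way. The FATB call was lost over the means of paired samples (limma adjusted p = 0.515), where 0 of 3375 probes passed. After normalization its mean was lower at high CO2 in samples 1 to 4 and higher in samples 5 and 6. AT1G24360 was dim and varied several-fold within each group, and 1 normal-CO2 sample carried most of its difference. In bulk RNA, fewer cells of a type and less RNA per cell cannot be told apart.

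Within a group, sample 1 correlated best with 2, sample 3 with 4 and sample 5 with 6 (r across probes from 0.919 to 0.981), so results are also given for the 3 pair means of each group. The median deposited intensity of all probes lay between 0.16 and 0.166 in normal-CO2 samples 1 to 4 and between 0.34 and 0.39 in high-CO2 samples 1 to 4. It was 0.255 and 0.256 in normal-CO2 samples 6 and 5, and 0.174 and 0.175 in high-CO2 samples 5 and 6, the reverse order. Of 15 marker genes of photosynthetic tissue, 1 had a single-gene probe, the antenna protein gene LHB1B2, which was above the floor in all 12 samples. Its log2 difference was 1.04 (limma adjusted p = 0.00261), with 5.52% of 3349 tested probes called higher. Over pair means 0 of 3349 probes passed, so this call was lost there. The part of LHB1B2 in the results below was not tested. Of 6 root and 7 senescence markers 0 had a single-gene probe.

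AT1G24360 gave weak signals on the deposited scale, which runs from 0 to 100 in each sample. At normal CO2 its deposited intensity was 0.074, 0.0365, 0.391, 0.0423, 0.0898 and 0.103 in samples 1 to 6. At high CO2 it was 0.189, 0.123, 0.0548, 0.123, 0.0359 and 0.0721. The groups overlapped, and normal-CO2 sample 3 lay above the other 11 samples. None of the 12 values was a 0.

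After quantile normalization, which gives all samples the same distribution of values, AT1G24360 was at 0.123, 0.0681, 0.506, 0.0893, 0.0845 and 0.102 in normal-CO2 samples 1 to 6. The high-CO2 samples were at 0.13, 0.08, 0.0204, 0.0614, 0.069 and 0.118. The groups again overlapped: apart from normal-CO2 sample 3, the highest value was a high-CO2 one, in sample 1. High-CO2 sample 3, the lowest, was below the floor of 0.0398 to which dim values were raised before taking log2.

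The mean normalized intensity of AT1G24360 was 0.162 ± 0.169 at normal CO2 and 0.0798 ± 0.0399 at high CO2 (SD, n = 6 each). The log2 difference, high minus normal CO2, was -0.665 (SE 0.457, 95% interval -1.65 to 0.32), a ratio of 0.631, and limma gave an adjusted p = 0.341. The interval reaches from 0.318 to 1.25 times the normal-CO2 level, so these samples show neither a difference nor its absence. Over pair means the limma adjusted p was 0.565. Without normal-CO2 sample 3 the mean there was 0.0935 ± 0.0207 (SD, n = 5), the log2 difference was -0.255 and the limma adjusted p was 0.608. On the deposited scale the log2 difference was -0.005 (limma adjusted p = 0.995), where the median of all probes was 0.45. Against that median AT1G24360 stood at -0.45 over all samples, at -0.48 in samples 1 to 4 and at -0.37 in samples 5 and 6. After normalization its log2 difference was -0.977 in samples 1 to 4 (limma adjusted p = 0.284) and -0.04 in samples 5 and 6. The former set holds the highest value, normal-CO2 sample 3, and the lowest, high-CO2 sample 3 at the floor, and its other samples overlapped between the groups.

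FATB varied less within groups on the deposited scale than AT1G24360. Its deposited intensity was 0.225, 0.286, 0.244, 0.243, 0.221 and 0.207 in normal-CO2 samples 1 to 6. In high-CO2 samples 1 to 6 it was 0.358, 0.465, 0.46, 0.37, 0.432 and 0.428. The groups did not overlap, and the gap between the highest normal-CO2 and the lowest high-CO2 sample was wider than the gaps between neighbouring samples within either group. Of the 3349 tested probes, 5.61% lay apart in this way as higher at high CO2 on the deposited scale and 2.21% as lower.

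The mean deposited intensity of FATB was 0.238 ± 0.0274 at normal CO2 and 0.419 ± 0.0451 at high CO2 (SD, n = 6 each). This is a 1.76-fold difference (log2 difference 0.817, SE 0.171), and FATB passed on this scale (limma adjusted p = 0.0175), as did 9.66% of 3375 tested probes as higher and 1.93% as lower. The median log2 difference of all probes was itself 0.45 on this scale, so FATB stood 0.37 above it, and 33.3% of the tested probes had a higher log2 difference. The pair means of the deposited FATB intensity were 0.256, 0.244 and 0.214 at normal CO2 and 0.411, 0.415 and 0.43 at high CO2. All 3 pairs of one group lay above all 3 of the other, but the limma adjusted p over pair means was 0.515. In that fit 0 of 3375 probes passed and 305 had an unadjusted p under 0.05. The SE behind the FATB p, 0.359, borrows variance from other probes. This p therefore does not measure the spread of FATB between pairs alone.

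**Figure D1:**
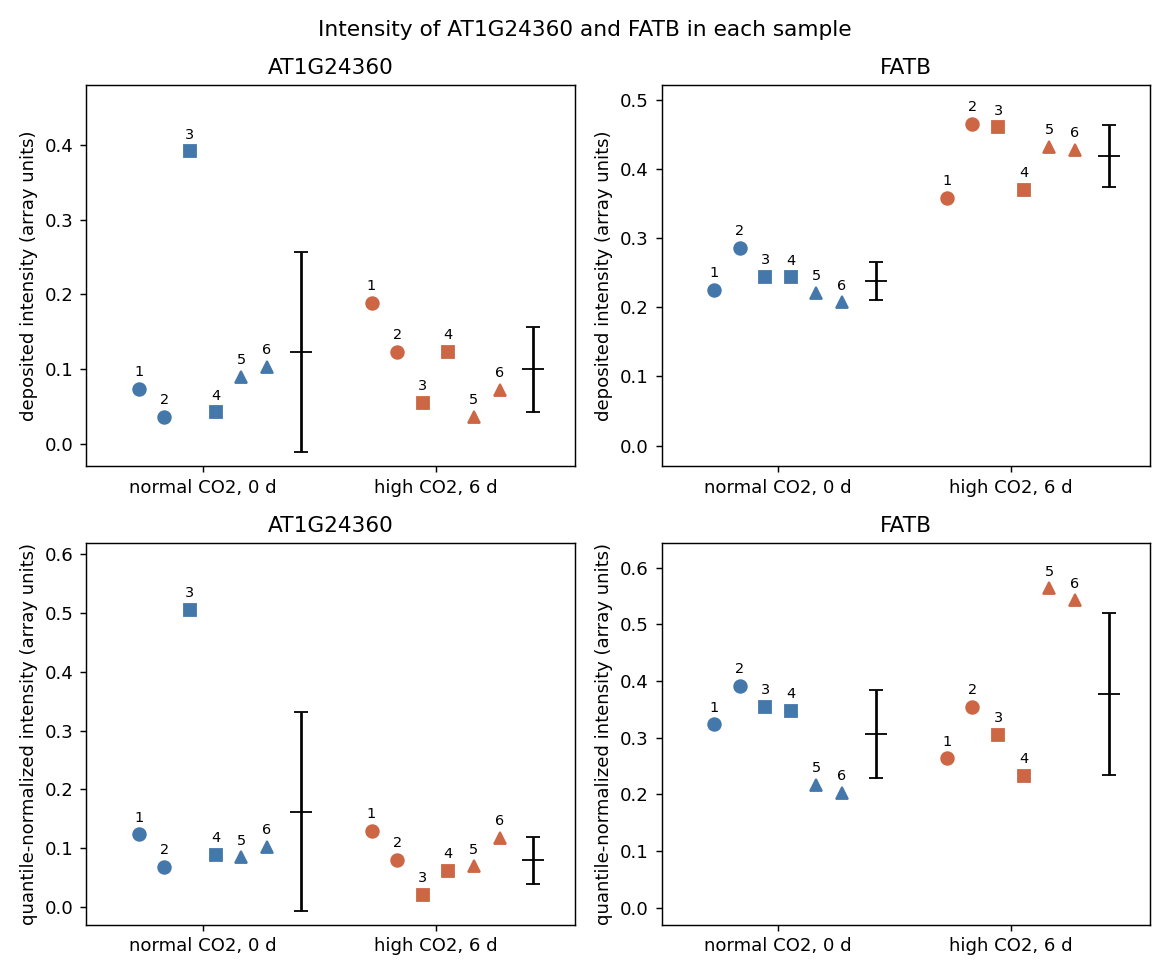
Intensity of AT1G24360 (left) and FATB (right) in each of the 12 samples, as deposited (top) and after quantile normalization (bottom), in array units. Numbers are sample numbers, symbols mark pairs 1-2, 3-4 and 5-6, and black marks give the mean ± SD of 6 samples. FATB groups lie apart as deposited and overlap after normalization, and normal-CO2 sample 3 stands far above the other AT1G24360 values.

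After quantile normalization the FATB groups overlapped. The normalized intensity was 0.323, 0.391, 0.354, 0.348, 0.217 and 0.203 in normal-CO2 samples 1 to 6. It was 0.263, 0.354, 0.304, 0.233, 0.564 and 0.542 in high-CO2 samples 1 to 6. Samples 5 and 6 held the lowest values of the normal-CO2 group and the highest values of the high-CO2 group. The means were 0.306 ± 0.0776 at normal CO2 and 0.377 ± 0.143 at high CO2 (SD, n = 6 each). The log2 difference was 0.259 (SE 0.269, 95% interval -0.32 to 0.84), a 1.2-fold difference, with a limma adjusted p = 0.546, and 0.798 over pair means. Dividing each sample by its median in place of quantile normalization gave 0.229 (limma adjusted p = 0.649), with 2.51% of 3386 tested probes called higher and 7.27% lower.

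The FATB difference depended on the set of samples. In samples 1 to 4, 4 against 4, the normalized log2 difference was -0.31 (limma adjusted p = 0.143), while 18.2% of the 3349 probes passed as higher and 19.8% as lower in these 8 samples. In samples 5 and 6, 2 against 2, it was 1.40, a 2.63-fold difference, and 9.97% of tested probes had a higher one. The 2 sets were split after their values were known, and the difference between them was not tested. On the deposited scale the FATB difference was 0.72 in samples 1 to 4 and 1.01 in samples 5 and 6, so it had the same sign in both. The median of all probes on that scale was 0.93 in samples 1 to 4 and -0.55 in samples 5 and 6. FATB therefore stood 0.21 below the median probe in the former set and 1.55 above it in the latter. FATB passed in samples 1 to 4 as deposited (limma adjusted p = 0.00307), where 53.2% of 3375 probes passed as higher and 6.79% as lower.

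**Figure D2:**
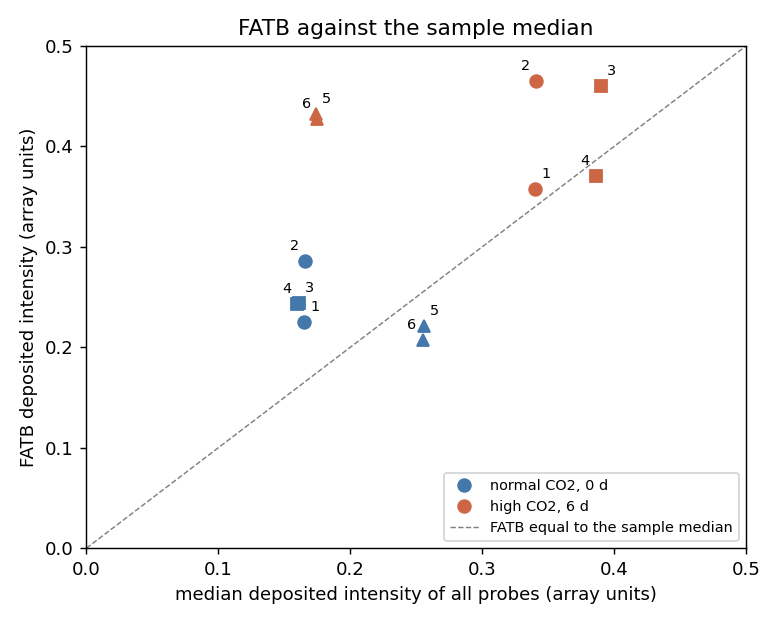
Deposited FATB intensity (vertical) against the median deposited intensity of all 3439 probes (horizontal) in each sample, in array units. Each point is 1 sample with its number, and the dashed line marks equality. All high-CO2 points lie above all normal-CO2 points, while the sample median is highest in high-CO2 samples 1 to 4 and lower in high-CO2 samples 5 and 6 than in normal-CO2 samples 5 and 6.

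The rank of a probe within its own sample does not depend on any scaling that keeps the order of values. FATB exceeded between 43.2% and 75.5% of the 3439 probes, depending on the sample. In normal-CO2 samples 1 to 6 it exceeded 59.3%, 65.4%, 62.3%, 61.7%, 45.4% and 43.2% of the probes. In high-CO2 samples 1 to 6 it exceeded 52.1%, 62.3%, 57.3%, 47.9%, 75.5% and 74.6%. Its highest place from the top was 843, in high-CO2 sample 5, and its lowest was 1952, in normal-CO2 sample 6, both from the last pair. The ranks of the groups overlapped.

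AT1G24360 stood low among the probes in every sample but 1. It exceeded 28.4%, 17.4%, 72.8%, 21.6%, 20.7% and 24.2% of the probes in normal-CO2 samples 1 to 6. In high-CO2 samples 1 to 6 it exceeded 29.7%, 19.8%, 9.39%, 16.2%, 17.6% and 27.4%. In normal-CO2 sample 3 it was in place 936 from the top, and in the other 11 samples between places 2418 and 3116. Without that sample the normal-CO2 places covered a range that lay within the high-CO2 range. In mean normalized intensity over the 12 samples, FATB was brighter than 64.7% and AT1G24360 brighter than 26.4% of the 689 single-gene loci, a statement about probe signals and not about transcript amounts.

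**Figure D3:**
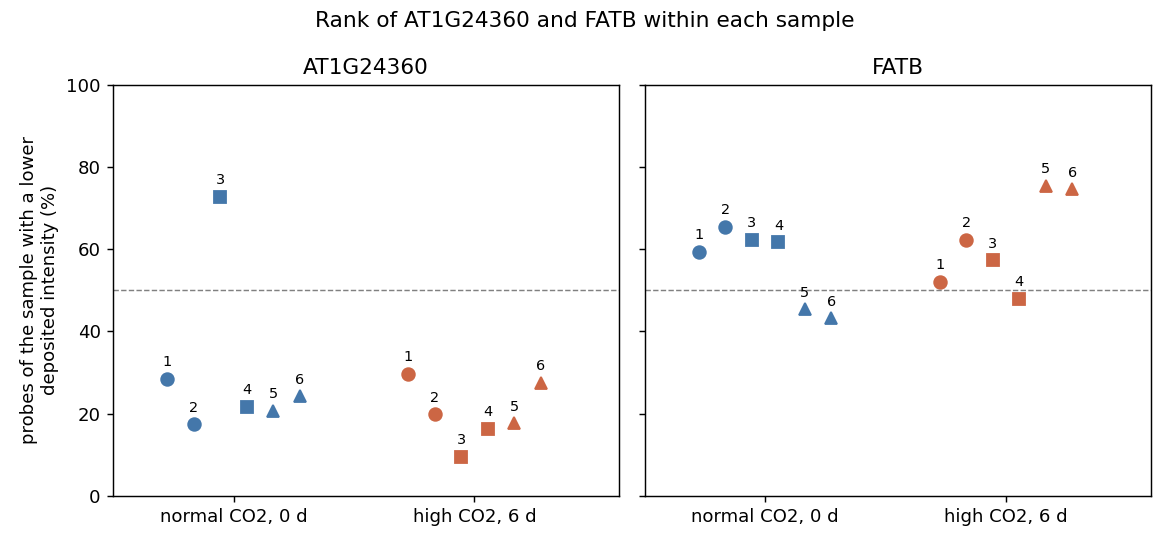
Share of the 3439 probes of a sample that had a lower deposited intensity (vertical, percent) for AT1G24360 (left) and FATB (right). Points are samples with their numbers, symbols mark the pairs, and the dashed line marks the middle probe. AT1G24360 lies between 9.39% and 29.7% except in normal-CO2 sample 3 at 72.8%, and FATB in samples 5 and 6 lies lowest at normal CO2 and highest at high CO2.

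The partners of a pair show how closely each gene was read in samples that resemble each other. For FATB the partners differed by 1.02-fold to 1.34-fold in normalized intensity. This was more than the median probe in 3 of 6 pairs, high-CO2 1-2 (log2 size 0.43 against 0.21), high-CO2 3-4 (0.39 against 0.23) and normal-CO2 1-2 (0.27 against 0.14). For AT1G24360 they differed by 1.21-fold to 1.81-fold in 4 pairs, by 3.01-fold before the floor between high-CO2 samples 3 and 4, and by 5.67-fold between normal-CO2 samples 3 and 4. In the pair of normal-CO2 samples 3 and 4 only 61 of the 3349 tested probes, 1.82%, differed by more, and the median probe differed by 0.17 on the log2 scale. The AT1G24360 level was thus less repeatable than the FATB level in each of the 6 pairs.

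The ratio of the elongation gene to the release gene was taken within each sample. Because it sets 1 probe against another, its size is no ratio of transcript amounts, and only its change between samples can be read. The log2 ratio of normalized intensities was -1.39, -2.52, 0.516, -1.96, -1.36 and -0.99 in normal-CO2 samples 1 to 6. At high CO2 it was -1.02, -2.15, -2.94, -1.92, -3.03 and -2.20. The value of high-CO2 sample 3 is an upper bound, because AT1G24360 was raised to the floor there, and before the floor its log2 ratio was -3.90, the lowest of the 12. The groups overlapped, and normal-CO2 sample 3 was the 1 sample with a ratio above 0.

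The mean log2 ratio was -1.28 ± 1.03 at normal CO2 and -2.21 ± 0.735 at high CO2 (SD, n = 6 each). The difference of -0.925 gave a two-sided exact permutation p = 0.0952 over all 924 assignments, and without the floor it was -1.085 (exact permutation p = 0.0931). Over pair means the exact p was 0.2, and 3 against 3 can give no p below 0.1. Without normal-CO2 sample 3 the difference was -0.564 (exact permutation p = 0.193). It was -1.162 without high-CO2 sample 1 (exact permutation p = 0.0325) and -1.172 without normal-CO2 sample 2 (exact permutation p = 0.039), the 2 single omissions that took it past the threshold. From the deposited values, in which any factor common to a sample cancels, the difference was -0.821 (exact permutation p = 0.245). After normalization the difference was -0.67 in samples 1 to 4 (exact permutation p = 0.457) and -1.44 in samples 5 and 6. On the deposited scale it was -0.27 in samples 1 to 4 (exact permutation p = 0.8) and -1.93 in samples 5 and 6. In samples 1 to 4 this was an AT1G24360 difference of 0.45 set against a FATB difference of 0.72, and in samples 5 and 6 one of -0.92 set against 1.01.

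**Figure D4:**
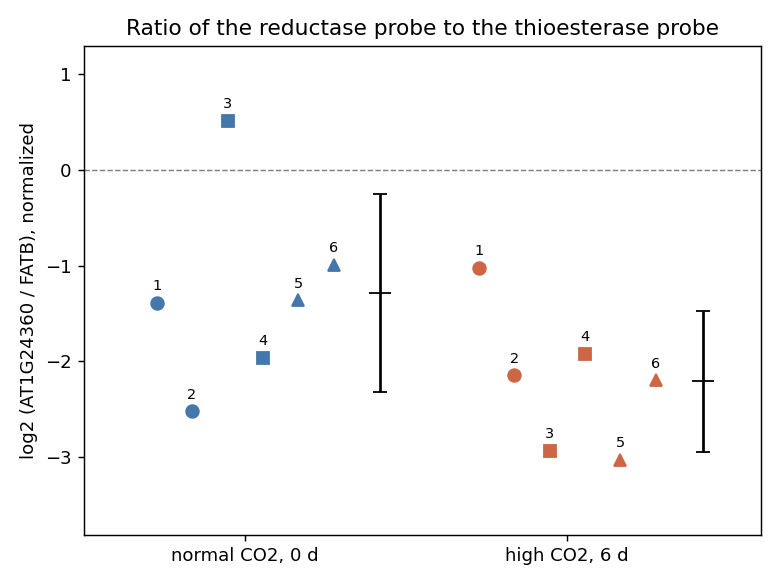
Log2 ratio of normalized AT1G24360 intensity to normalized FATB intensity in each sample, with sample numbers, pair symbols and the mean ± SD of 6 samples in black. The dashed line marks a ratio of 1, and high-CO2 sample 3 is drawn at its upper bound. The groups overlap, and normal-CO2 sample 3 at 0.516 is the only point above the line.

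The log2 normalized intensities of the 2 genes had a Pearson r of 0.066 and a Spearman rho of -0.011 over 12 samples, which share the pairs and the normalization, and r was -0.006 without normal-CO2 sample 3. Among 558 other loci with a single-gene probe above the floor in most samples, the profile most like that of FATB was AT2G26340 (r = 0.95), followed by HEMA3, a glutamyl-tRNA reductase gene (0.926), AT3G23940, a dihydroxyacid dehydratase gene (0.921), AT2G25870 (0.919) and AT3G06870 (0.88). Their log2 differences between the groups ran from 0.05 to 0.57, and 0 of the 5 passed the limma test, which called 5.52% of all tested probes higher and 6.96% lower. The profiles nearest to AT1G24360 were less alike: AT4G02800 (r = 0.74), SRX, a sulfiredoxin gene (0.607), AT3G51930 (0.566), AT4G00170 (0.555) and NTRC, a plastid thioredoxin reductase gene (0.555). Without normal-CO2 sample 3 these r values were 0.651, 0.715, 0.285, 0.431 and 0.277. Of these 5, 2 passed as lower, SRX (log2 difference -1.22, limma adjusted p = 0.0428) and NTRC (-0.61, limma adjusted p = 0.023). The 5 loci of each gene had the highest r among 558, over samples that resemble each other in pairs. Because r takes in the group difference, loci that differ in the direction of the gene are favoured, and their calls are not independent of the choice.

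Little else of the pathway had a probe of its own. Of 52 loci listed for plastid fatty acid synthesis and glycerolipid assembly, 3 had a single-gene probe: AT1G24360, FATB and AT5G16230, an acyl-ACP desaturase gene. AT5G16230 lay at the floor in 11 of 12 samples (log2 difference -0.027, limma adjusted p = 0.905). None of the loci listed for pyruvate dehydrogenase, acetyl-CoA carboxylase, acyl carrier proteins, the regulator and cofactors, or glycerolipid assembly had one, though they may lie on probes with several genes or none. Another 7 probes were annotated to several genes of 1 enzyme family of the pathway, and 0 of these 7 passed the limma test, at the background of 5.52% higher and 6.96% lower. A count of 0 among so few is near that background. Several of the 7 were also dim. The probes shared by desaturase genes lay at the floor in 10, 3 and 2 of 12 samples, and the dimmer dehydratase probe in 3. The count says little about these.

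FATB was also 1 of 3 acyl-ACP thioesterase genes annotated to a second probe, whose signal cannot be assigned to any of them. The normalized intensity of this probe was 0.519 ± 0.0543 at normal CO2 and 0.555 ± 0.124 at high CO2 (SD, n = 6 each; log2 difference 0.077, limma adjusted p = 0.798). On the deposited scale its log2 difference was 0.36, and in samples 1 to 4 the groups lay apart as for the FATB probe, at 0.61 to 0.953 at high CO2 and 0.328 to 0.441 at normal CO2. In these samples the median of all probes was itself 0.93 higher as deposited, and 53.2% of 3375 probes were called higher. How many probes lay apart in samples 1 to 4 was not counted. In the last pair the shared probe did not follow the FATB probe: normalized high-CO2 samples 5 and 6 were at 0.489 and 0.435, and normal-CO2 samples 5 and 6 at 0.531 and 0.581. On the deposited scale these were 0.375 and 0.33 against 0.588 and 0.651, the reverse order of the FATB probe. A probe shared by the other 2 thioesterase genes had 0.422 ± 0.0484 at normal CO2 and 0.304 ± 0.145 at high CO2 (SD, n = 6 each; log2 difference -0.583, limma adjusted p = 0.155). Its log2 difference was -0.05 on the deposited scale. The hydroxyacyl-ACP dehydratase genes act after the reductase. The brighter of their shared probes had 0.483 ± 0.325 at normal CO2 and 0.384 ± 0.159 at high CO2 (SD, n = 6 each). Its log2 difference was -0.033 (SE 0.522, limma adjusted p = 0.975), and 0.47 as deposited. With this spread the samples show neither a difference nor its absence. The lowest normalized value of this probe, 0.085, was in normal-CO2 sample 3, against 0.607 in sample 4, its partner. AT1G24360 had its highest value in that same sample 3, and a link between these values was not tested.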

How the data were processed

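The deposited table was read as linear intensity, because no value is negative and each of the 12 samples ends at the same top just under 100. Of the array type and of what the authors did to these values, nothing is given in the sources used here. Quantile normalization was applied with limma 3.58.1 in R 4.3.3, and a deposited 0 stayed 0. Each sample has a 1st percentile of its positive normalized values, and the highest of these, 0.0398, served as the floor before log2, which raised 12.5% of the probes in every sample. Folds and differences come from mean log2 values after the floor. limma's lmFit and eBayes, with group as the only term, ran on 3349 probes, leaving out 90 at the floor in all samples. Random blocks used statmod 1.5.0. The procedure was run on simulated data with independent samples, which cannot check it for samples that resemble each other in pairs.

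Gene names come from the 2016 annotation of the platform (692 probes with 1 gene, 870 with several, 1877 with none given). Of the 692, 690 matched TAIR10.1 RefSeq genes, used for names only. A gene was read by its brightest single-gene probe. Named were both genes, measured members of the pathway and tissue marker lists, and the 5 loci most like each gene by r, at the floor in at most 2 samples. Probes shared within a family were added after values were seen. The members and lists were chosen with earlier results of these data known. Same-numbered samples of the 2 groups had residual correlations from -0.0784 to 0.158, which gives no sign that the numbers pair them, and the labels state no pairing. Precision is limited by the number of arrays.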

Additional observations from a re-analysis of the deposited data

Results flagged for a closer look

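AT1G24360 in normal-CO2 sample 3 stood far from the rest of its group, at -0.98 on the log2 normalized scale against -3.88 to -3.02 in the other 5 samples. Its gap to the nearest of them was 0.704 of the group's whole range, above Dixon's 95% critical value. Of 12 groups of 6 values examined in this way, 1 exceeded it, and chance gives about 1 in 20 for independent values, which paired samples are not.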

How the results depend on the processing

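Fits without samples 5 and 6 were planned with earlier results known, and those that join the deposited scale with pair means or with samples 1 to 4, that leave out normal-CO2 samples 3 and 4, or that replace the FATB probe or drop the floor in the ratio were chosen after seeing the data. For none of these changes was the cause tested. The AT1G24360 difference did not pass under any of 26 alternatives (limma adjusted p from 0.266 to 0.996). It was -0.665, and 0.453 in samples 1 to 4 as deposited, where the median probe was at 0.93; the same samples gave -0.977 after normalization, and single omissions gave -0.833 to -0.255. The FATB difference passed with values as deposited (0.817) and in samples 1 to 4 as deposited (0.722), and turned to -0.31 in samples 1 to 4 after normalization; single omissions gave 0.126 to 0.382. The log2 ratio difference kept its sign under 24 alternatives, from -1.172 to -0.269, and single omissions gave -1.172 to -0.564. With the shared thioesterase probe in place of the FATB probe it was -0.742 (exact permutation p = 0.238). The replicate block on sample numbers, which gave no sign of pairing the samples, left both genes without a call (limma adjusted p = 0.426 for AT1G24360 and 0.639 for FATB) and gave an exact p = 0.25 for the ratio. Of all probes, 418 passed (185 higher, 233 lower), 326 higher and 65 lower as deposited, and 85 and 246 after median scaling. In limma, 0 passed over pair means, 0 with pairs as a random block and 0 over pair means as deposited (408, 511 and 305 at an unadjusted p under 0.05). In samples 1 to 4, 1270 passed, and 2026 as deposited. Single omissions gave 230 to 580, with 266, 242, 230, 240 and 270 without high-CO2 samples 1, 2, 3 and 4 and normal-CO2 sample 5.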
